A study of Mus musculus with 4 samples.

Results

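Genes for the fibrous matrix of a cardiac scar were described in sham-operated mouse heart: Col1a1, Col1a2, Col3a1, Postn and Fn1. They are 5 of the 35299 loci in the deposited table. Each was taken as the locus with a UCSC gene model and the highest mean count in a fixed interval of the mouse genome build mm9. The table holds 4 libraries of 1 group, Sham, from heart of C57BL/6J mice. The mice were 12 weeks old, and the tissue was taken 2 weeks after the sham operation, where the border of an infarct would lie. The labels name no transgene, agent or pooling. Replicate 4 is labelled sham in its title, source name and treatment, but its free-text description names an infarct border only. The 4 columns of the table (3RL, 7LR, 8R, 12RL) are tied by no label to a replicate number, so which of them is replicate 4 is not known.

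Collagen fibres give the heart wall its tensile strength. Fibroblasts make them from procollagen chains, and type I collagen joins the chains of Col1a1 and Col1a2, while type III collagen is made of Col3a1 chains alone. Fibronectin (Fn1) is a cell-adhesive glycoprotein on which early matrix is laid down, and periostin (Postn) is a matricellular protein that is abundant where fibroblasts are activated after injury.

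The files give no gene symbols, so the identity of each locus was checked by its exon structure. The lengths of all internal exons and introns of a UCSC model at each locus equalled those of a GENCODE M21 transcript on the same chromosome and strand. All 5 loci matched their own symbol and no other. On mm9, Col1a1 lies at chromosome 11, 94797312 to 94814358 on the plus strand, with 51 exons in its longest UCSC model. Col1a2 lies at chromosome 6, 4455093 to 4491543, plus strand, with 52 exons. Col3a1 lies at chromosome 1, 45368194 to 45408061, plus strand, with 51 exons. Postn lies at chromosome 3, 54165047 to 54194954, plus strand, with 22 exons, and Fn1 at chromosome 1, 71632097 to 71699745, minus strand, with 46 exons.

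Promoter sequence was taken from RefSeq's table (GRCm38.p6), which matched 3 of the 5 genes, as a description of the genes. The 250 bases before the start site are shown, 5′ to 3′ on the gene's strand, with capitals for 3 motifs searched on both strands, TATAAA of the TATA box, the CCAAT box and the short SMAD-binding motif CAGAC. They lie at chr6:4505368-4505617 (Col1a2), chr1:45311288-45311537 (Col3a1) and chr3:54360857-54361106 (Postn), all on the plus strand. For Postn, of 2 start sites in the table, the one is shown whose distance to the end of the gene is closest to the span of the UCSC model.
Col1a2: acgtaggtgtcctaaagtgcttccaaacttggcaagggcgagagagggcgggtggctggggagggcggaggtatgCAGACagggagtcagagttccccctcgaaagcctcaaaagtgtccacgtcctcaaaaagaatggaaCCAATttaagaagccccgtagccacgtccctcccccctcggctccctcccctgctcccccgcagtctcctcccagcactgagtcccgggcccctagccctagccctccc
Col3a1: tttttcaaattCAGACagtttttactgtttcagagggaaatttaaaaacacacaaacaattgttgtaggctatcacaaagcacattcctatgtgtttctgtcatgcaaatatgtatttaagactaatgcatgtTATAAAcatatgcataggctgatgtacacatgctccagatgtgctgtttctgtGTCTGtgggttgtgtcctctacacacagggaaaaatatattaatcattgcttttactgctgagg
Postn: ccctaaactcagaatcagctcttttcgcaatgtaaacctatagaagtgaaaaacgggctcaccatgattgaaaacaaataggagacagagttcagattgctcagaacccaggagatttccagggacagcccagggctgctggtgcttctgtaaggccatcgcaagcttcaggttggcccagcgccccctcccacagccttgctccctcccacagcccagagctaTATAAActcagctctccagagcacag
The TATA box letters were found in Postn at -26 to -21 from the start site and in Col3a1 at -117 to -112. Over the 32851 promoter windows of the table, 12.4% hold them. The CCAAT box was found in Col1a2 at -109 to -105, and 33.8% of all windows hold it. The SMAD motif was found in Col1a2 at -175 to -171 and in Col3a1 at -239 to -235 and, as GTCTG, at -64 to -60. It is present in 42.2% of all windows. A match is a description of the letters, not of a bound site.

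The transcript models differed in how much they branch. Of 10 Fn1 models, all from UCSC, 7 had 44 to 46 exons, and these differed at 3 places known for alternative splicing of fibronectin. An exon of 270 bases, which encodes extra domain A, was in 4 of the 7 (mm9 chromosome 1, 71650234 to 71650503), and an exon of 273 bases for extra domain B was in 1 of the 7 (71660337 to 71660609). An exon in the variable region was 107, 392 or 467 bases long, in 2, 2 and 3 models. The 270-base exon is shown because it is a coding block that the count of the locus cannot resolve. It was read from the GENCODE M21 transcript with the same exon chain (GRCm38 chr1:71603660-71603929, minus strand).
Fn1 exon of extra domain A: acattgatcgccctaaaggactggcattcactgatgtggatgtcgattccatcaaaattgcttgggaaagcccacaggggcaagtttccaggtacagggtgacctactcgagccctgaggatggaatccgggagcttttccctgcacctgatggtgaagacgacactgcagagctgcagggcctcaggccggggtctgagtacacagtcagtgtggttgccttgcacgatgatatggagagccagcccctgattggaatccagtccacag
The 3 Postn models differed by 2 exons, of 81 and 84 bases, each in 1 of the 3. Col1a1 had 1 UCSC model of 4698 bases and 1 assembled model with the same introns that was 6158 bases long. Col3a1 had an assembled model of 7263 bases against 4770 bases for its longest UCSC model. Col1a2 had 8 models, of which 5 were assembled. The counts are per locus, so no level can be given for an exon or an isoform.

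Whole reads were recovered from the table. The libraries held between 108345923 in 12RL and 160670654 reads in 8R, and the 5 genes had between 2437 reads (Postn in 12RL) and 37440 reads (Col3a1 in 3RL). Counting error at the mean read number of each gene gave a CV of 0.628% (Col3a1) to 1.44% (Postn). The labels call the samples biological replicates but name no animals, so the SD over libraries measures the spread between these samples only. The tissue label was checked against heart muscle genes: the locus that holds both Myh6 and Myh7, the cardiac myosin heavy chains, had 4389572 to 5309783 normalised counts, and Actc1, cardiac actin, had 1177408 to 1640532.

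Col3a1, the type III collagen chain, had the most counts of the 5 genes. Its normalised read count, the reads divided by the authors' size factor of the library, was 44691 in 3RL, 32836 in 8R, 29780 in 7LR and 14291 in 12RL. Library 3RL was the highest and 12RL the lowest, 3.13-fold apart. The mean was 30399 ± 12517 (SD, n = 4), the 599th highest of all loci.

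Col1a1 and Col1a2 encode the chains of type I collagen. Col1a1 had 21094 counts in 3RL, 16969 in 8R, 13033 in 7LR and 9157 in 12RL, a mean of 15063 ± 5132. Col1a2 had 25169 in 3RL, 25318 in 8R, 20082 in 7LR and 15258 in 12RL, a mean of 21456 ± 4796. Both were lowest in 12RL and next lowest in 7LR, and the highest library was 2.30 times the lowest for Col1a1 and 1.66 times for Col1a2.

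Postn had 6771 counts in 3RL, 7214 in 8R, 5450 in 7LR and 3842 in 12RL, a mean of 5819 ± 1516. Like Col1a2 it was highest in 8R and lowest in 12RL, which were 1.88-fold apart. Fn1 had 9730 in 3RL, 8656 in 8R, 9069 in 7LR and 8019 in 12RL, a mean of 8869 ± 719. Its libraries lay within 1.21-fold of each other, and 12RL was again the lowest.

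**Figure D1:**
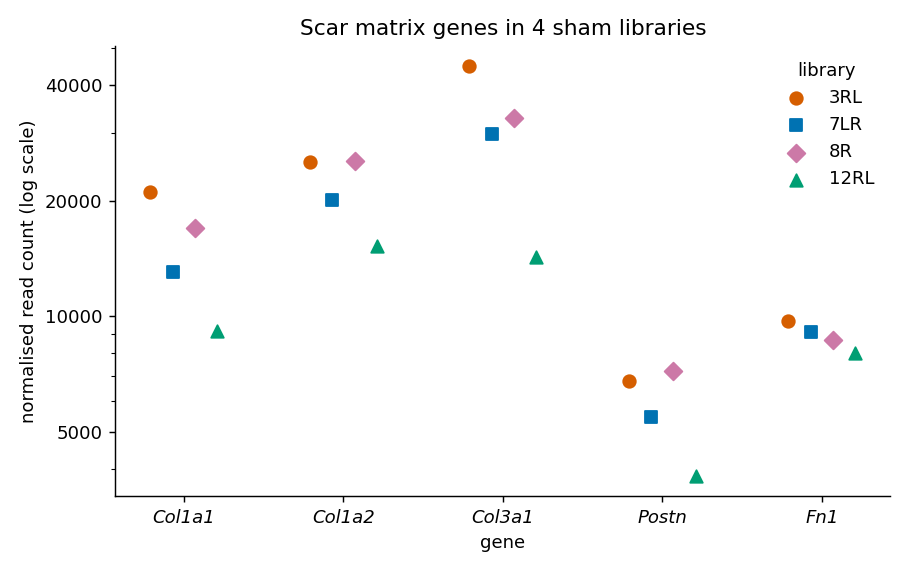
Normalised read counts of the 5 scar matrix genes on a log axis, 1 point per library, with a colour and symbol for each library. Library 12RL is the lowest point of every gene, and the points of Fn1, from 8019 to 9730, lie closest together.

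Together the 5 genes took 0.0640% of all normalised counts in 3RL, 0.0498% in 8R, 0.0477% in 7LR and 0.0296% in 12RL. They were thus minor transcripts in this tissue by count, although 89.8% (Postn) to 98.3% (Col3a1) of all loci had a lower mean.

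Levels of different genes were compared per kb of the longest UCSC model. Col3a1 was highest with 6373 ± 2624 counts per kb (SD, n = 4), followed by Col1a2 with 4172 ± 933, Col1a1 with 3206 ± 1092, Postn with 1826 ± 476 and Fn1 with 1067 ± 86.4. Within each library every gene was above the next one in this order, in 4 of 4 libraries for each of the 4 neighbouring pairs. The exact two-sided sign-flip test gave p = 0.125 for each pair, also after Benjamini-Hochberg adjustment over 4 pairs, which is the smallest p that 4 libraries allow. The order and its pairs were taken from the same 4 libraries, so the test gives no separate support for the order. The geometric mean ratios were 1.44-fold for Col3a1 over Col1a2, 1.34-fold for Col1a2 over Col1a1, 1.72-fold for Col1a1 over Postn and 1.67-fold for Postn over Fn1.

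The first places of this order depend on the length used. With the longest model of any kind, which includes the longer assembled models, Col3a1 and Col1a2 were level at 4186 and 3964 counts per kb (mean log2 ratio -0.0048). With the union of all UCSC exons, which adds the short Col1a2 models that reach outside the exons of the full-length model, Col1a2 was below Col1a1 (log2 ratio -0.54). Postn stayed below the 3 collagen genes and above Fn1 under each of the 4 other lengths tried.

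**Figure D2:**
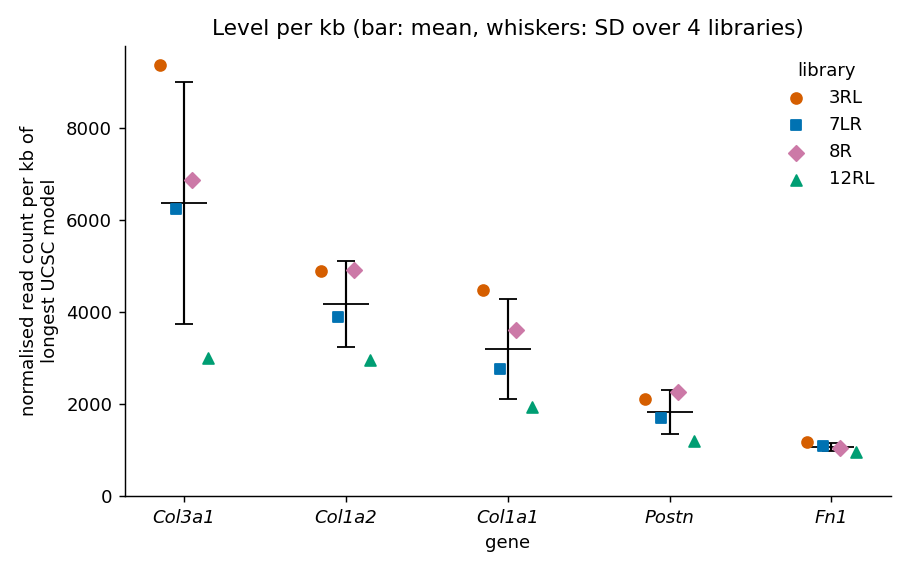
Normalised read count per kb of the longest UCSC model for each gene, in order of the mean, with the 4 libraries as points, the mean as a bar and the SD as whiskers. The means run from 6373 for Col3a1 to 1067 for Fn1, and the whiskers of the 3 collagen genes overlap.

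Ratios of genes within a library do not depend on its size factor. The ratio of Col1a2 to Col1a1 per kb was 1.09 in 3RL, 1.36 in 8R, 1.41 in 7LR and 1.52 in 12RL (1.35 ± 0.183). Col3a1 over Col1a1 was 2.09 in 3RL, 1.91 in 8R, 2.25 in 7LR and 1.54 in 12RL (1.95 ± 0.306). Col3a1 over Col1a2 varied most of the 3 ratios, from 1.91 in 3RL to 1.01 in 12RL, so that in 12RL both genes were level per kb.

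Postn kept a nearly fixed ratio to Col1a1 in 3 libraries, 0.616 in 7LR, 0.627 in 8R and 0.619 in 12RL, and was at 0.473 in 3RL. Fn1 did not keep such a ratio: Fn1 over Col1a1 was 0.261 in 3RL, 0.288 in 8R, 0.393 in 7LR and 0.495 in 12RL. It was largest in 12RL, the library in which Col1a1 was lowest.

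The collagen genes and Postn varied more between libraries than most loci of like abundance, and Fn1 did not. Each gene was set beside the loci nearest to it in mean count, among the 14424 loci whose mean was at least 50, as a description without a test. The CV of Col1a1 was 34.1%, above all of its like loci, whose median CV was 7.94%. Col3a1 had a CV of 41.2%, above 99.4% of its like loci. Postn had 26.1% (above 97.8%) and Col1a2 had 22.4% (above 96.2%). Fn1 had a CV of 8.10%, above 49.9%, and so lay at the middle of its like loci with the deposited scaling. With equal table totals it was above 72.3%.

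Library 12RL carried much of this spread. Without it, the CVs were 23.7% for Col1a1, 22.0% for Col3a1, 14.2% for Postn, 12.7% for Col1a2 and 5.92% for Fn1. The share of like loci with a smaller CV was then 95.2% for Col1a1, 95% for Col3a1, 83.8% for Postn, 77.6% for Col1a2 and 28.3% for Fn1. Over all 14424 loci, the highest library was 2 or more times the lowest at 6.59% of loci. Among like loci this share was 0.399% for Col1a1 and 1.6% for Col3a1. Of the members, Col1a1 and Col3a1 reached such a ratio. Without 12RL none did, since the ratios of Col1a1 and Col3a1 were then 1.62 and 1.5.

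**Figure D3:**
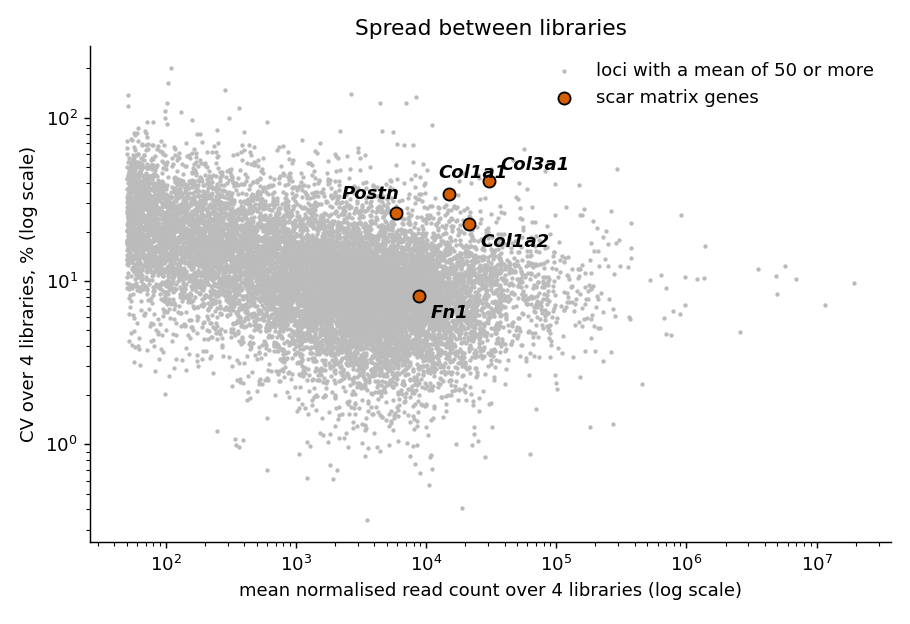
CV over the 4 libraries against the mean normalised read count, both on log axes, for loci with a mean of 50 or more (grey) and the 5 scar matrix genes (orange). Col3a1, Col1a1, Postn and Col1a2, with CVs of 22.4% to 41.2%, lie at the upper edge of the cloud, and Fn1, at 8.10%, in its middle.

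All 5 genes were lowest in 12RL. Of all loci at or above a mean of 50, 27.3% were lowest in 12RL. The deviation of 12RL from the mean of the 4 libraries on the scale of log2(count + 1) was -0.98 for Col3a1, -0.65 for Col1a1, -0.56 for Postn, -0.46 for Col1a2 and -0.14 for Fn1. The median over the 5 genes was -0.56, where the median over all such loci was -0.03. The 5 genes are parts of 1 tissue's matrix and were measured in the same RNA, so they are not 5 independent readings of 12RL.

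Library 3RL was the highest for Col1a1, Col3a1 and Fn1, with deviations of 0.55, 0.67 and 0.14. It was the highest for 4 of the 5 genes with TMM or median-of-ratios scaling and for all 5 with equal totals. The share of all loci highest in 3RL was not computed. Equal nuclear or table totals moved all loci alike, by 0.025 to 0.036 (log2) in 3RL and by -0.065 to -0.097 in 8R. As deposited, highest in 3RL and lowest in 12RL held for Col1a1, Col3a1 and Fn1 and for 9.91% of all loci. In 8R the collagens and Postn also lay above the mean, by 0.22 to 0.35, while Fn1 was at -0.03. In 7LR all 5 genes were near the mean, from -0.14 for Col1a1 to 0.08 for Col3a1. No library of any member stood apart by Dixon's criterion, which 4.6% of all loci meet.

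Library 12RL was also the shallowest, and libraries differ in their values of long and short transcripts. Among UCSC loci of like spliced length, the median deviation in 12RL was 0.02 for loci like Col1a1, 0.02 for loci like Col3a1, 0.03 for loci like Col1a2, -0.03 for loci like Postn and 0.09 for loci like Fn1. With these medians taken off, the deviations in 12RL were -1.0 for Col3a1, -0.68 for Col1a1, -0.53 for Postn, -0.49 for Col1a2 and -0.23 for Fn1. All 5 genes remained lowest in 12RL, against 24.7% of UCSC loci treated likewise. With TMM, median-of-ratios, nuclear-total or table-total scaling, all 5 genes were lowest in 12RL too. Of all loci, 26.3%, 23.2%, 33.5% and 31.8% were lowest in 12RL under these scalings, in the same order.

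**Figure D4:**
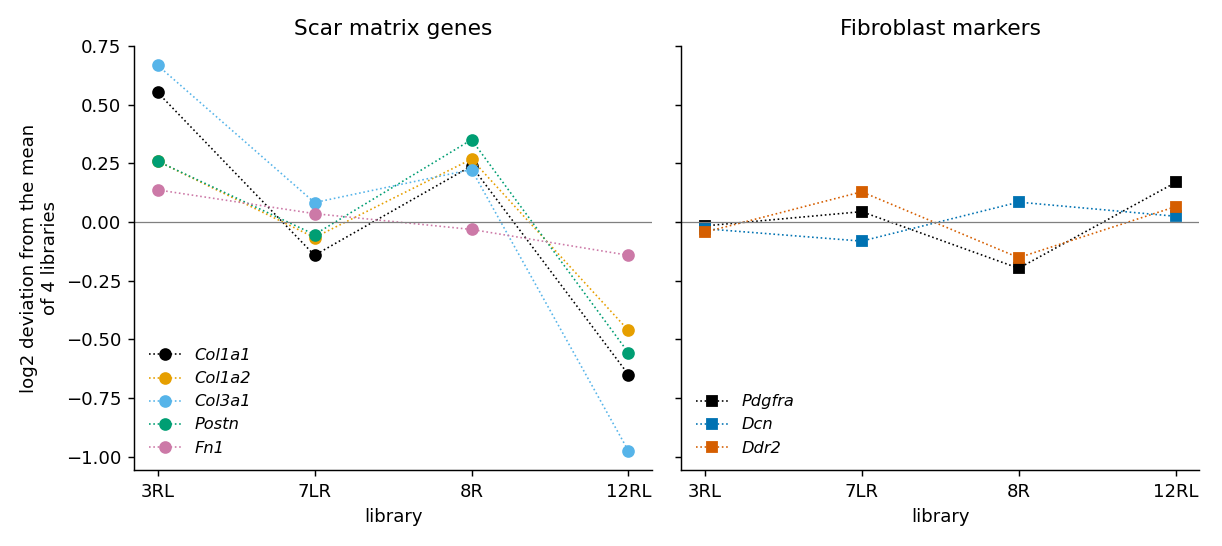
Each library's log2 deviation from the mean of the 4 libraries, for the 5 scar matrix genes (left) and for 3 fibroblast markers (right), with dotted lines only to connect the points of a gene. The matrix genes reach from 0.67 (Col3a1 in 3RL) to -0.98 (Col3a1 in 12RL). Of the markers, Pdgfra is highest in 12RL, Ddr2 in 7LR and Dcn in 8R, and none is lowest in 12RL.

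Markers of cell types were matched to loci by exon structure. In bulk tissue, fewer cells of a type and less RNA per cell cannot be told apart. None of the 3 matched fibroblast markers was lowest in 12RL (27.3% of all loci were). The summed count of Pdgfra, Dcn and Ddr2 (3 of 4 markers matched, none at 0) was 62980 in 3RL, 66146 in 8R, 62074 in 7LR and 66128 in 12RL, within 1.07-fold. Most of this sum is Dcn (mean 52830 of 64332), which is also on the list of matrix genes below. Singly, the highest library was 1.12 times the lowest for Dcn, 1.29 times for Pdgfra and 1.21 times for Ddr2, the last being the range of Fn1. Pdgfra, a receptor that marks resident fibroblasts, was highest in 12RL, with 6360 counts against 5594 in 3RL. The ratio of Col3a1 to Pdgfra counts was 7.99 in 3RL, 6.65 in 8R, 5.10 in 7LR and 2.25 in 12RL. For Fn1 over Pdgfra it was 1.74 in 3RL, 1.75 in 8R, 1.55 in 7LR and 1.26 in 12RL. Over the summed markers the ratios varied less. The highest library was then 3.28 times the lowest for Col3a1 and 1.27 times for Fn1, against 3.56 and 1.39 times over Pdgfra.

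Cthrc1, a gene that marks activated fibroblasts, was scarce, with 87.1 normalised counts in 3RL, 122 in 8R, 27.3 in 7LR and 7.88 in 12RL. These rest on 73, 107, 24 and 5 reads in the same order. It was thus lowest in 12RL and high in 3RL and 8R, as were Col1a2 and Postn. Acta2, smooth muscle actin, which activated fibroblasts also make, had 14552 counts in 3RL and 8691 to 10101 in the others.

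Markers of other cell types moved with the matrix genes in part. The summed count of the endothelial genes Pecam1, Cdh5 and Kdr (3 of 3 matched) was 110676 in 3RL and between 79215 and 85616 in the others, with 12RL at 85016. Of these 3 genes, Cdh5 was lowest in 12RL. The macrophage genes Adgre1 and Csf1r (2 of 3 matched) summed to 8954 in 3RL, 7658 in 8R, 7324 in 7LR and 6297 in 12RL, which is the order of Col1a1 and Col3a1. Smooth muscle genes Myh11 and Tagln (2 of 2) summed to 9838 to 12820, with 12248 in 12RL. The cardiomyocyte genes Actc1 and Ttn (2 of 4) lay within 1.05-fold as a sum but not singly. Ttn, the giant sarcomere protein titin, had 706034 counts in 3RL, 701734 in 8R, 1092008 in 7LR and 1105123 in 12RL. Long transcripts as a class went the same way. Loci like Fn1 in spliced length had median log2 deviations of -0.06 in 3RL, -0.14 in 8R, 0.11 in 7LR and 0.09 in 12RL. The part of transcript length in the Ttn values was not tested. Actc1 had 1521800 in 3RL, 1640532 in 8R, 1177408 in 7LR and 1215872 in 12RL. None of the matched markers was at 0. The merged locus of Hba-a1 and Hba-a2, which encode the alpha chain of haemoglobin, had 83406 counts in 8R and 25307 to 38496 in the others. The part of any of these in the matrix gene values was not tested.

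Other genes of the matrix were read from a list of 43 symbols. Of these, 39 matched a locus of their own, Plod1, Pcolce and Mmp14 lay in loci that hold other genes, and Ctgf had no match. Col11a1 fell below a mean of 50, which left 38 genes. Of the 38, 19 were lowest in 12RL (27.3% of all loci) and 30 were lower in 12RL than in 3RL (56.7% of all loci). The median difference of 12RL from 3RL was -0.36 (log2), where the median of all loci was -0.04 and that of the 5 scar matrix genes -0.82. This pair of libraries was chosen after the values were seen.

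All 9 other collagens were lower in 12RL than in 3RL (56.7% of all loci), with a median of -0.68. Of the 9, 7 were lowest in 12RL (27.3% of all loci). Highest in 3RL and lowest in 12RL held for 5 of the 9 (9.91% of all loci). Col4a2 and Col6a3 were lowest in 8R, Col8a1 was highest in 8R, and Col12a1 was highest in 7LR. Col5a2, a chain of the type V collagen that is built into fibrils with types I and III, had 5900 counts in 3RL, 4869 in 8R, 4609 in 7LR and 3688 in 12RL. It is also the nearest UCSC locus to Col3a1, 23115 bases away on the other strand. Col6a2, of the beaded filaments around cells, had 14711 in 3RL and 8044 in 12RL, and Col4a1, of basement membranes, had 90917 in 3RL and 51182 in 12RL. Col8a1 (-0.26) and Col12a1 (-0.22) differed least.

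Among 9 fibre and matricellular genes, 7 were lower in 12RL than in 3RL (56.7% of all loci). Sparc, a collagen-binding protein, had 71384 counts in 3RL, 53415 in 8R, 49021 in 7LR and 35709 in 12RL. Tnc, tenascin C, had 272 in 3RL and 117 in 12RL, and Fbn1, fibrillin of microfibrils, had 13062 and 6958. Dcn, the proteoglycan decorin on collagen fibrils, did not share this order, with 51752 in 3RL and 53691 in 12RL. Thbs1, thrombospondin, was lowest in 3RL at 833 and highest in 8R at 4762.

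Of 9 enzymes and chaperones that modify collagen, 7 were lower in 12RL than in 3RL (56.7% of all loci), with a median difference of -0.17, and 2 were lowest in 12RL (27.3% of all loci). Loxl1 and Loxl2, which crosslink matrix proteins, differed by -0.76 and -0.77, while Lox differed by -0.06. Serpinh1, the chaperone of procollagen, had 22993 counts in 3RL, 28484 in 8R, 19421 in 7LR and 18387 in 12RL, the order of libraries seen for Col1a2 and Postn. P4ha1, a subunit of the prolyl hydroxylase, was highest in 8R (9559) and lowest in 7LR (5823).

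Genes of matrix turnover went both ways. Timp3 and Timp4, inhibitors of matrix proteases, were lowest in 3RL and highest in 12RL, with 23473 and 42454 counts for Timp3 and 3589 and 7171 for Timp4. Timp1 and Timp2, of the same family, were lower in 12RL than in 3RL, by -0.77 and -0.28 (log2). The protease Mmp2 was highest in 3RL (9181) and lowest in 12RL (6748). Mmp9, another protease, was highest in 12RL, 0.80 above 3RL (log2), with a low mean of 79.2 counts. Of the 6 turnover genes, 3 were lower in 12RL than in 3RL (56.7% of all loci). Of the TGF-beta ligands and receptors, which control collagen synthesis, Tgfb1 had 3470 in 3RL, 3041 in 8R, 2628 in 7LR and 2445 in 12RL, the order of Col1a1. Tgfb2 (-0.18), Tgfb3 (-0.18), Tgfbr1 (0.11) and Tgfbr2 (-0.21) differed less between 12RL and 3RL.

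**Figure D5:**
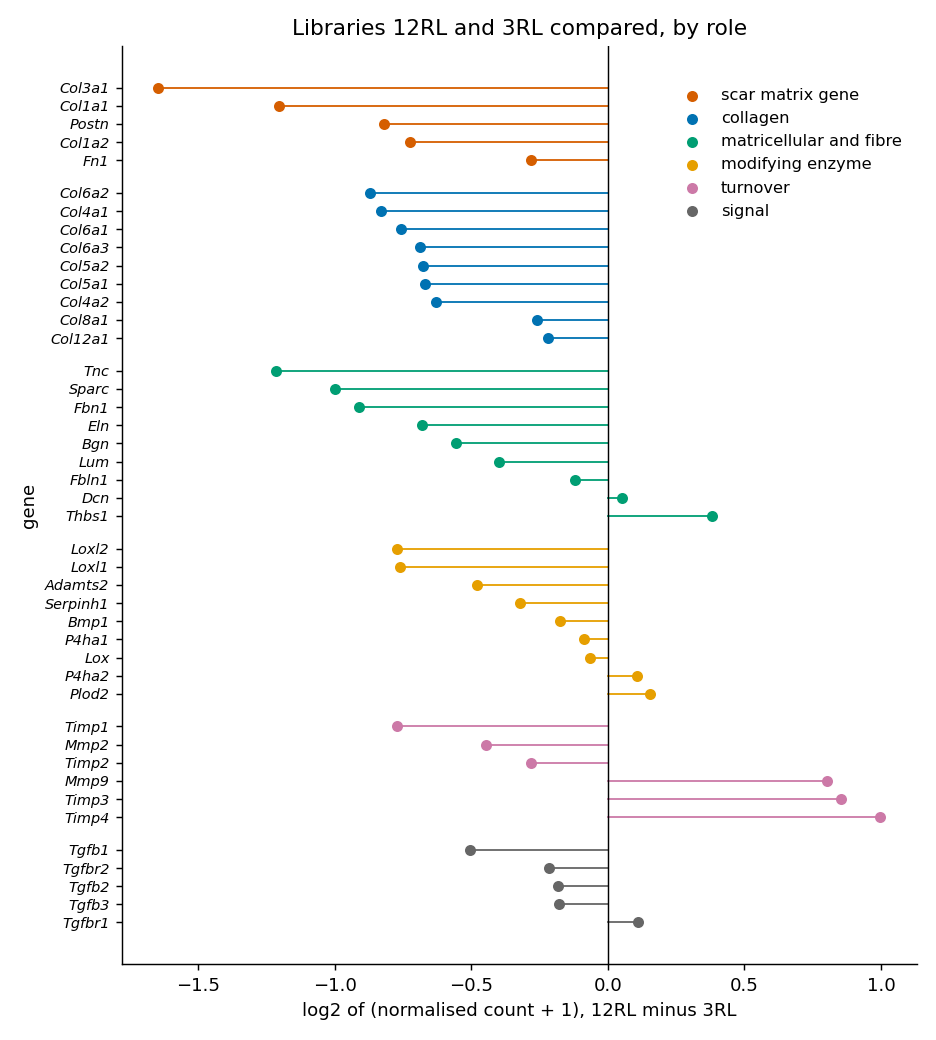
Difference of library 12RL from library 3RL in log2(normalised count + 1) for the 5 scar matrix genes and the 38 listed matrix genes, grouped by role, with the pair of libraries chosen after the values were seen. All 5 scar matrix genes and all 9 other collagens lie left of 0, the side of 56.7% of all loci, and Timp4 lies farthest right.

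Some loci next to these genes were lowest in 12RL, as were 27.3% of all loci, and others were not. Col5a2, beside Col3a1, had the same order of libraries as Col3a1. Gulp1, on the other side of Col3a1, was at 408 in 12RL and at 614 to 625 in the other libraries, highest in 3RL. Atic, 6119 bases from Fn1, had 4475 to 5053 counts, and Bet1, beside Col1a2, had 1460 to 1680, both lowest in 12RL. The next lowest library was close, 3RL with 4605 for Atic and 1496 for Bet1. Sgca, 9747 bases from Col1a1, had 17625 to 19755 counts and was lowest in 7LR. Casd1, on the other side of Col1a2, had 4617 to 5217 counts and was lowest in 3RL. Beside Postn, Supt20 had 2884 to 3462, lowest in 8R, and Trpc4 had 38.2 to 44.1, lowest in 3RL. Apol7d overlaps the start of Fn1 on the other strand and had a mean of 1.17, and the UCSC locus below Col1a1 was at 0 in every library. Of 4 loci without a UCSC model within 50 kb of a member, all near Col1a1, none had a mean of 10 or more.

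The loci whose profile over the 4 libraries was most like the mean of the 5 genes were Oasl1, Tmsb10, Ebi3, Rgs10 and a locus on chromosome X that holds Gm614 and Il2rg. They were the nearest of 13246 UCSC loci by Euclidean distance of the log2 deviations, at distances of 0.03 to 0.08. Tmsb10, an actin-binding thymosin, had 1622 counts in 3RL, 1449 in 8R, 1178 in 7LR and 856 in 12RL. The members themselves lay at 0.17 (Col1a2) to 0.54 (Fn1) from their own mean profile. With deviations freed of the trend with length, 0 of these 5 loci stayed among the nearest 5.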

How the data were processed

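Per the labels' protocols, poly(A) RNA of 4 Sham libraries was read on a HiSeq2000 from both ends, 100 bases each. The deposited table holds signal values, which are read counts per locus over 1 size factor per library, and a second file gives exon coordinates on mm9. The submitters' processing notes name DESeq, HTSeq 0.5.4p2, Cufflinks 2.0.2 and TopHat2 2.0.5. Strandedness and the treatment of reads shared by similar or overlapping genes: not given in the sources used here.

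Every deposited value was a whole multiple of 1 step per column (within 0.001, 100% of loci), so whole reads were recovered. Members and lists were chosen with earlier results of these data known. Symbols were tied to loci by exon chains (models of 3 or more exons; 17323 of 26078 UCSC loci matched, 16593 to 1 symbol), a step added after the files were seen, since the UCSC identifiers were in none of the reference tables searched; the genes named are the members, their neighbours, the listed genes and the 5 most similar loci. No groups were compared. Spread was set beside the loci of nearest mean, deviations used a pseudocount of 1, and alternatives covered scaling, length, measure of spread and libraries. The comparison of spread with like loci and the deviations were tested on simulated data. No such test is reported for the other steps, among them the length correction, the search for similar profiles and the exon-chain matching. Tools were Python 3.11.15, numpy 2.4.6, scipy 1.17.1, pandas 2.3.3 and edgeR 4.0.16 in R 4.3.3.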

Additional observations from a re-analysis of the deposited data

Results flagged for a closer look

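Of 76 features examined, 6 had 1 library standing apart from the other 3 by Dixon's criterion. About 1 in 20 features does so by chance, and 4.6% of all loci did. The ratio of Postn to Col1a1 per kb was 0.473 in 3RL and at least 0.616 elsewhere. Gulp1, the neighbour of Col3a1, had 408 normalised counts in 12RL, and Trpc4, the neighbour of Postn, had 38.2 in 3RL. Trpc4 was scarce, with a mean of 42.2, and so lies outside the loci with a mean of at least 50 that gave the 4.6%. Bmp1, which cleaves the procollagen propeptide, had 5961 in 3RL. The endothelial gene Pecam1 had 27875 in 3RL, and the smooth muscle gene Myh11 had 6279 in 8R.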

How the results depend on the processing

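Levels of the 5 genes, the median deviation of each library and the number of members with a library standing apart (0 in all) moved by less than the spread under every scaling, pseudocount and length correction run, although the median in 7LR changed sign (0.02 with equal table totals, -0.05 as deposited). The number of listed matrix genes lowest in 12RL, 19 of 38 as deposited, was 18 to 21 under the other scalings, where 23.2% to 33.5% of all loci were. With the length trend removed it was 23. With loci that hold other genes included it was 21, out of a list longer than 38. Leaving out 1 library other than 12RL gave 22 to 25. The lowest is then taken among fewer libraries, and no share of all loci was computed. These alternatives, and the longest model of any kind, were chosen after seeing the data. Length mattered for levels per kb. With the union of UCSC exons they were 2144 for Col1a2 and 854 for Fn1, with the median UCSC model 6661 and 1154, and with the union of all exons 2045 and 854, with Col3a1 at 3138. Col1a2 over Col1a1 (log2) turned to -0.54 with the union of UCSC exons and -0.22 with the union of all exons, and Col3a1 over Col1a2 to -0.0048 with the longest model of any kind. The mean ratios with the union of UCSC exons were 0.692 for Col1a2 over Col1a1, 1.29 for Col3a1 over Col1a1 and 1.91 for Col3a1 over Col1a2. The share of like loci with a smaller spread than Fn1 was 56.9% with TMM, 71.9% with equal nuclear totals, 72.3% with equal table totals and 58.9% with edgeR's tagwise dispersion. Leaving out 1 library gave 28.3% to 73.7% for Fn1, 77.6% to 99.2% for Col1a2, 83.8% to 98.4% for Postn, 95% to 99.8% for Col3a1 and 95.2% to 100% for Col1a1, the lowest each time without 12RL. Of the 5 most similar loci, 0 remained with the length trend removed. The single gene value that moved was Fn1 in 7LR, at -0.07 with the length trend removed. No paired analysis was possible because every library is Sham. For the Fn1 shares, the cause was not tested.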
